A study of Mus musculus with 3 samples.

Results

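The chemokines described here are 9 genes whose transcripts activated T cells can make: Ccl1, Ccl3, Ccl4, Ccl5, Ccl17, Ccl20, Ccl22, Cxcl10 and Xcl1. They were chosen by name, with earlier results of these data known. A probe set is a set of short probes that reads a transcript on an Affymetrix array. Every probe set that the platform annotation gives to a listed gene and to no other was taken. This found 9 probe sets, 1 for each gene, among 18193 named genes. RNA came from CD4+CD25- T cells taken from the spleens and lymph nodes of BALB/c females aged 6 to 8 weeks. The mice of all conditions are labelled Stat6/T-bet double knockouts; Stat6 and T-bet are the factors that chiefly drive Th2 and Th1 differentiation, and their loss could not be checked on these arrays. All cultures were activated for 2 days on plates coated with anti-CD3 (5 µg/ml), with anti-CD28 at 1 µg/ml. They differed in the added cytokines. The first received TGFβ at 5 ng/ml, and the second received IL-6 and IL-23, each at 10 ng/ml, and is called the IL-23 culture or array below although IL-6 was present too. The last received IL-6 (10 ng/ml) together with TGFβ (5 ng/ml) and is called IL-6/TGFβ. Each condition was measured on 1 array, with no replicates, and no p-value can be given. The set holds no unstimulated culture, no culture without added cytokine and no cells with intact Stat6 or T-bet. The labels do not say how many mice gave the cells.

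Chemokines are small secreted proteins that draw cells along a gradient through receptors coupled to G proteins. T cells both follow them and make them: after antigen-receptor stimulation they release inflammatory chemokines such as CCL3, CCL4 and CCL5, and XCL1, which attracts the dendritic cells that carry XCR1. CCL20 and its receptor CCR6 are a well-known pair of Th17 cells, CCL17 and CCL22 act on CCR4, CCL1 acts on CCR8, and CXCL10 is an interferon-induced ligand of CXCR3. All these transcripts can also come from other cells, dendritic cells and macrophages among them.

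The study set IL-6/TGFβ against TGFβ alone in search of Th17 genes linked to both IL-17 and IL-10, and against the IL-23 culture to part them from genes linked to IL-17 alone. Levels below are intensities after quantile normalization, which gives the arrays a common distribution, in arbitrary units and in the order TGFβ, IL-23, IL-6/TGFβ. As deposited, the arrays had median intensities of 35.8, 17.8 and 28.1. The floor was set at 66.0: of the pooled readings, on all 3 arrays, of 129 probe sets for genes that other tissues use, 95% lay below it. That list held Mbp and Cela1, whose probe sets raise the floor: without them, a choice made after seeing the data, it would be 43.1, and the floor of 66.0 was kept as planned. A level under it was read as not above background, and levels under it have no order. Calls needed a difference of 2-fold or more and a level above the floor on the brighter array of the pair. Where the dimmer level lay under the floor, the floor stood in for it and the fold is written as "at least". For error, the arrays offer only the disagreement in log2 ratio between a gene's brightest probe sets, called the probe-set spread. This SD came to 0.22 for IL-6/TGFβ over TGFβ, 0.29 for IL-6/TGFβ over IL-23 and 0.30 for IL-23 over TGFβ. Among genes with a level near the floor it was larger, at 0.25, 0.32 and 0.32. Multiples of the spread given below use the former values and would be smaller with the latter. The spread leaves out differences between cultures, mice and arrays. With 1 probe set each, the 9 chemokines have no second probe set as a check. In such bulk RNA, fewer cells making a transcript and less transcript per cell cannot be told apart.

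Of the 9 chemokines, 6 were above the floor on at least 1 array, and they fell into 3 orders. Ccl3, Ccl4 and Ccl22 were highest with IL-23 and lowest with IL-6/TGFβ. Ccl20 was high on both arrays with TGFβ and under the floor with IL-23. Ccl1 and Xcl1 were highest with TGFβ alone. Ccl5, Ccl17 and Cxcl10 stayed under the floor on all 3 arrays. These detection calls depend on the floor: at 43.1, and at the 90th percentile of 36.9, Ccl5 would be above it with IL-23 (58.9) and Ccl17 with IL-6/TGFβ (52.2), while Cxcl10 would stay under it throughout.

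**Figure D1:**
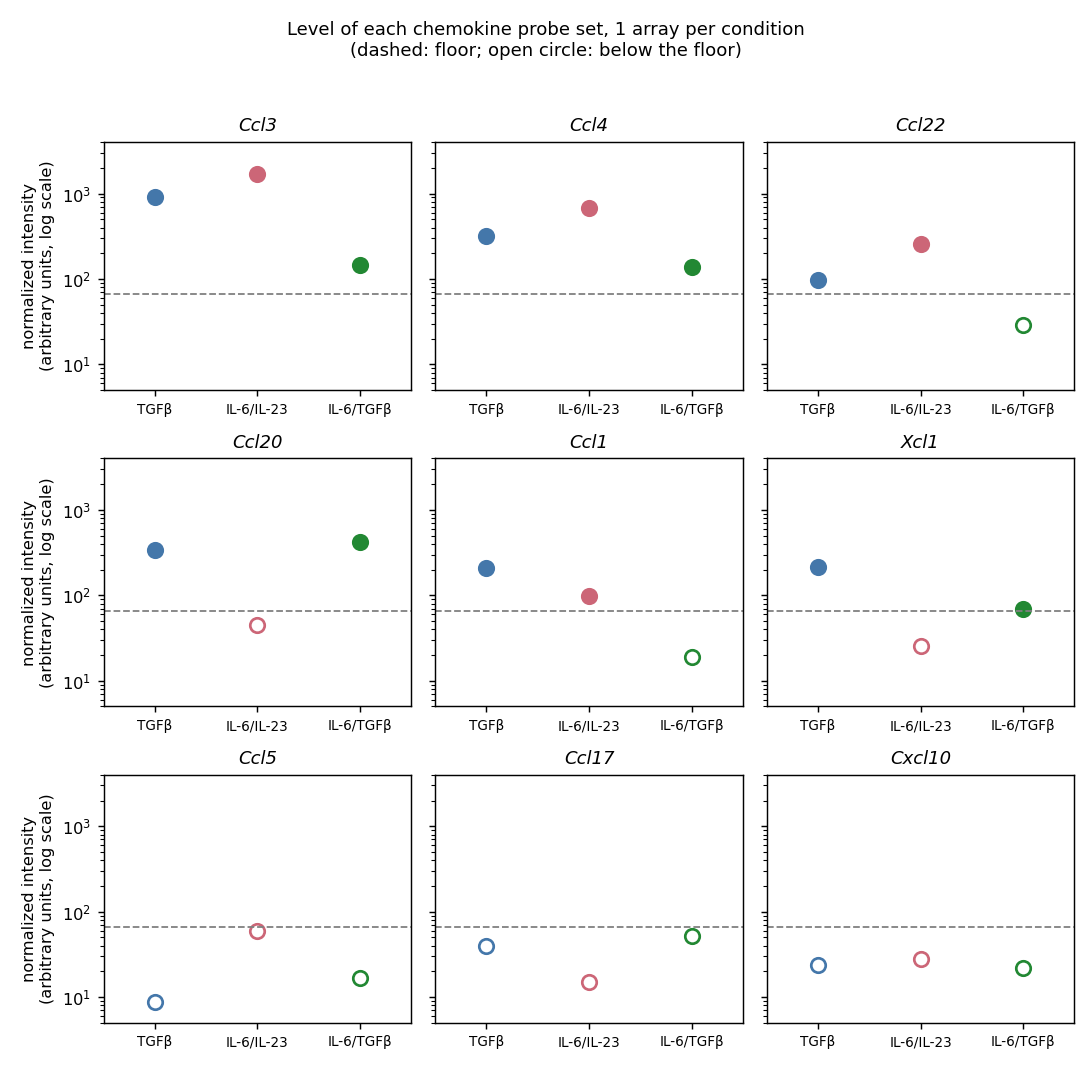
Normalized intensity (arbitrary units, log axis) of the 9 chemokine probe sets on the TGFβ, IL-23 (marked with both its cytokines on the axis) and IL-6/TGFβ arrays, 1 point per array. The dashed line is the floor of 66.0 and open circles lie under it, where levels have no order; Ccl3 runs from 144 to 1698, and Ccl20 is under the floor with IL-23 only.

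The stretches of 250 bases upstream of the annotated start are shown for the 5 chemokines of these 3 orders that the promoter table holds, so that the genes with opposite orders can be set beside each other (RefSeq, GRCm38.p6, 5′ to 3′ on the strand of the gene). They are Ccl20 at chr1:83116516-83116765, plus strand, Ccl3 at chr11:83649379-83649628, minus strand, Ccl22 at chr8:94745434-94745683, plus strand, Ccl1 at chr11:82179813-82180062, minus strand and Xcl1 at chr1:164935523-164935772, minus strand. Capitals mark matches to the motifs described after them.
Ccl20: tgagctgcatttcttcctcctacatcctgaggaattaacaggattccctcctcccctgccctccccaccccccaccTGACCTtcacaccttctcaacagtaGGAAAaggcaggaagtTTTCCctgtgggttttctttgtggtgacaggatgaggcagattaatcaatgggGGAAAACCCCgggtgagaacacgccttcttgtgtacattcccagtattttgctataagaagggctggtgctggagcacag
Ccl3: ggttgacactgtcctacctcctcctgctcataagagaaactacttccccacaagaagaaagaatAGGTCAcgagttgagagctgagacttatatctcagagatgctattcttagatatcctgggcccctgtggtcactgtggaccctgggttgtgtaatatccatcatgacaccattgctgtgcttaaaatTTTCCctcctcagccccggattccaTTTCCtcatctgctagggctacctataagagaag
Ccl22: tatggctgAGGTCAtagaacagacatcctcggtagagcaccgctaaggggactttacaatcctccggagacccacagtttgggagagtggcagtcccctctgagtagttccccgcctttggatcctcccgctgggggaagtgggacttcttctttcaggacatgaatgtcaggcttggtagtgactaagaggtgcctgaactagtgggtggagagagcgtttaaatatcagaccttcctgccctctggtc
Ccl1: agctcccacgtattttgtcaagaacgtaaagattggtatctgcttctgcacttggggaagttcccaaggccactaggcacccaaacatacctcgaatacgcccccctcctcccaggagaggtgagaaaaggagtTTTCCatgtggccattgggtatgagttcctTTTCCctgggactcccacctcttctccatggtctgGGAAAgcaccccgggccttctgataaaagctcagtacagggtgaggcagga
Xcl1: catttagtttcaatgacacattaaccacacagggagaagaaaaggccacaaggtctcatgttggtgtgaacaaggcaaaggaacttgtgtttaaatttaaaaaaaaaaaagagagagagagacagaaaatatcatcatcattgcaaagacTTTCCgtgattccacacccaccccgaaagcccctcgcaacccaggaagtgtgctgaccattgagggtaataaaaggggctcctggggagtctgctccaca

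The motifs searched on both strands were NF-κB (GGG and TTTCC with any 2 bases between), the NFAT core (GGAAA), AP-1 (TGANTCA), the STAT element GAS (TTCNNNGAA), the interferon-stimulated response element (GAAA and again GAAA with any 2 bases between) and the ROR core (AGGTCA). Ccl20 held an NF-κB match on the reverse strand, GGAAAACCCC, 80 to 71 bases before the start, and its first 5 letters are at the same time an NFAT core match. That NF-κB motif was present in 1.41% of the 32851 stretches in the table, and in 1 of the 7 found for the 9 chemokines. Only this fixed pattern was searched, and letters that come near it were not counted. Examples are GGGAAATTCC in the Cxcl10 stretch and GGGAAGTTCC in that of Ccl1. A stretch without a match may therefore still hold a looser form of the site. Ccl20 also held a ROR core 174 to 169 bases before the start, a motif present in 14.0% of all stretches. Its NFAT cores numbered 3, the one within the NF-κB match included. Ccl3 held 1 ROR core and 2 NFAT cores, Ccl1 held 3 NFAT cores, Xcl1 held 1, and Ccl22 held a ROR core alone. The NFAT core is present in 55.6% of all stretches and so separates few genes. The stretch of Cxcl10 held an interferon-stimulated response element (2.98% of all), an AP-1 match (6.75%) and 3 NFAT cores. That of Ccl17 held a GAS match (7.02%), a ROR core and an NFAT core. In all, 4 of the 7 stretches held a ROR core and 6 an NFAT core. A match describes letters and shows no binding.

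Ccl3 and Ccl4, which make classical inflammatory chemokines, are neighbouring genes on chromosome 11 and moved together. Ccl3 read 922, 1698 and 144, all above the floor, from deposited intensities of 1257, 1258 and 149. The IL-6/TGFβ array was low and the other arrays were high. With IL-6/TGFβ its level was 6.39-fold lower than with TGFβ (log2 ratio -2.68, 12.1 times the probe-set spread) and 11.8-fold lower than with IL-23 (-3.56, 12.4 times the spread). Among genes measured on both arrays, ranked from the lowest, these ratios stood at rank 2 of 8215 and rank 4 of 8227. Ccl4 read 317, 684 and 138, again with the lowest level on the IL-6/TGFβ array. It was 2.30-fold lower there than with TGFβ (-1.20) and 4.96-fold lower than with IL-23 (-2.31), or 5.43 and 8.02 times the spread. With the higher floor of 250 (99th percentile), the Ccl4 ratio to TGFβ became a bound of -0.34 and was not counted.

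Between the remaining arrays the order of this pair was less marked. With IL-23, Ccl3 was 1.84-fold higher than with TGFβ (0.88, 2.96 times the spread) and was not counted, and Ccl4 was 2.16-fold higher (1.11, 3.73 times the spread) and was counted. Scaling set these values: on unscaled intensities they were 0.00083 and 0.19, while the median of all measured genes lay at -0.85. Relative to that median they were 0.85 and 1.04 on unscaled intensities, 0.88 and 1.06 after median scaling, 0.86 and 1.05 after scaling to housekeeping genes, and 0.83 and 1.06 after quantile normalization.

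Ccl5, a further inflammatory chemokine gene, lies in the same region of chromosome 11, next to Ccl9. It read 8.83, 58.9 and 17.0, under the floor on every array, so no ratio was read. Ccl9, and Ccl6, the coding gene beside Ccl3, were also under the floor on all arrays, and so was Ccl8, the neighbour of Ccl1. Of the receptors for these ligands, Ccr1 reached at most 59.6 and Ccr3 at most 23.9, both under the floor on all arrays.

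Ccl22, a ligand of CCR4 that also attracts regulatory T cells, followed Ccl3 and Ccl4 in order. It read 98.2, 258 and 28.8, above the floor on the arrays with TGFβ alone and with IL-23 and under it with IL-6/TGFβ. With IL-6/TGFβ it was at least 3.91-fold lower than with IL-23, and with IL-23 it was 2.63-fold higher than with TGFβ (1.39, 4.68 times the spread). The bound for IL-6/TGFβ against TGFβ was at least 1.49-fold lower and was not counted, but it passed 2-fold with floors of 36.9 (-1.41) and 43.1 (-1.19). On unscaled intensities it passed as well (-1.04). Relative to the median gene, however, that bound was -0.62 unscaled and -0.59 after quantile normalization. With a floor of 250 both counted ratios of Ccl22 became bounds, -0.05 for IL-6/TGFβ over IL-23 and 0.05 for IL-23 over TGFβ, and were not counted. The difference between IL-23 and TGFβ was 0.40 on unscaled intensities, or 1.25 relative to the median gene. Ccl17, the other CCR4 ligand, is separated from Ccl22 on chromosome 8 by Cx3cl1 alone among coding genes. Ccl17 read 39.5, 15.2 and 52.2 and Cx3cl1 reached at most 31.7, all under the floor.

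Ccl20, the ligand of CCR6, had the opposite order. It read 343, 45.4 and 416, from deposited intensities of 476, 30.3 and 417. Both arrays with TGFβ were high and the IL-23 array was under the floor. Its level with IL-6/TGFβ was above that with IL-23 by at least 6.29-fold, and its level with IL-23 was at least 5.19-fold below that with TGFβ. The arrays with TGFβ differed by 1.21-fold (0.28, 1.26 times the spread), and this small ratio turned to -0.19 on unscaled intensities. Relative to the median gene the ratio was 0.26 after quantile normalization and 0.23 on unscaled intensities. Floors of 36.9 (90th percentile) or 43.1 (without 2 genes of the list) let all levels of Ccl20 be read. Its ratios to and from IL-23 were then 3.19 and -2.91. With a floor of 250 they became bounds of 0.74 and -0.46 and were not counted. Il17a, which Th17 cells make beside CCL20, read 498, 3273 and 3211, so its low array (TGFβ) was not the low array of Ccl20 (IL-23).

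Ccl1 and Xcl1 were highest with TGFβ alone. Ccl1, the ligand of CCR8, read 209, 97.3 and 18.8, under the floor with IL-6/TGFβ. It was 2.15-fold lower with IL-23 than with TGFβ (-1.10, 3.70 times the spread) and with IL-6/TGFβ it was at least 3.16-fold lower. Against IL-23 the bound was at least 1.47-fold lower and was not counted, while floors of 36.9 and 43.1 took it to -1.40 and -1.17. Xcl1, which makes the chemokine lymphotactin, read 217, 25.7 and 68.6. The IL-23 array was under the floor, and the level with IL-6/TGFβ lay just above it. With IL-6/TGFβ it was 3.16-fold lower than with TGFβ (-1.66, 7.53 times the spread), and with IL-23 it was at least 3.29-fold lower than with TGFβ. Between the arrays with IL-6 the bound was 0.06 on the log2 scale in favour of IL-6/TGFβ, and it rose to 0.90 with a floor of 36.9 and 0.67 with a floor of 43.1, short of 2-fold in each case. With a floor of 250 neither gene was above it on any array.

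Cxcl10, the interferon-induced ligand of CXCR3, read 24.0, 28.0 and 22.1, under the floor on all arrays. Its neighbours in function, Cxcl9 and Cxcl11, were under it too. Of 11 interferon-induced genes analysed, 5 were above the floor on at least 1 array, and 0 were counted as higher or lower in any comparison. Gbp2, a guanylate-binding protein gene, read 1975, 2835 and 2575, and Irf1, a transcription factor gene, read 1894, 1778 and 1130.

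**Figure D2:**
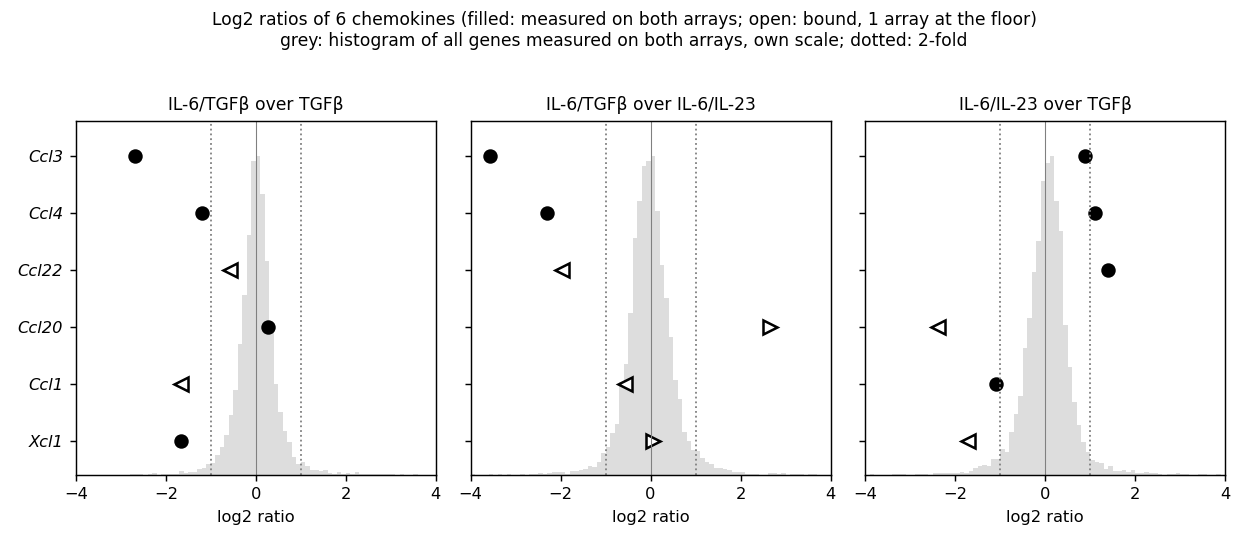
Log2 ratios of the 6 chemokines above the floor on at least 1 array, in 3 comparisons. Filled circles were measured on both arrays, open triangles are bounds that point to the side on which the ratio lies, dotted lines mark 2-fold, and the grey histogram shows all genes measured on both arrays on a scale of its own; Ccl3 lies at -2.68 and -3.56 in the comparisons with IL-6/TGFβ, and Ccl20 alone lies far to the right in the middle panel.

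Counted over the 9 chemokines, adding IL-6 to TGFβ went with lower levels of 4, while Ccl20 was slightly higher (0.28) and not counted. The 9 were chosen with earlier results of these data known. An excess over the share of all genes is therefore not that of a blind choice. The shares over all genes given beside the counts are of genes above the floor on the brighter array of the pair, a condition that the same 6 of the 9 chemokines met in each comparison and Ccl5, Ccl17 and Cxcl10 did not. For IL-6/TGFβ over TGFβ, 4 of 9 were lower (Ccl1, Ccl3, Ccl4 and Xcl1), where 2.04% of 8871 genes were lower, and 0 were higher, where 2.72% were. The median ratio of the 6 chemokines that could be read was -1.43, with bounds entered at their bound, and that of all genes that could be read was 0.02. For IL-6/TGFβ over IL-23, 3 of 9 were lower (Ccl3, Ccl4 and Ccl22), where 3.29% of 8997 genes were lower, and 1 was higher (Ccl20), where 3.78% were. The medians were -1.26 and -0.04. Both cultures had IL-6 and differed in TGFβ and IL-23, and the parts of these cytokines cannot be told apart. For IL-23 over TGFβ, 2 of 9 were higher (Ccl4 and Ccl22), where 3.47% of 8931 genes were higher, and 3 were lower (Ccl1, Ccl20 and Xcl1), where 3.26% were. The medians were -0.11 and 0.06. Each array serves in 2 of the 3 comparisons, so these counts are not independent of each other.

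The balance of calls depended on the scaling. Of all genes counted, the share that was higher was 57.1% for IL-6/TGFβ over TGFβ, 53.5% for IL-6/TGFβ over IL-23 and 51.6% for IL-23 over TGFβ. After median scaling these shares were 45.8%, 37.6% and 55.0%, after housekeeping scaling 40.0%, 67.4% and 25.6%, and on unscaled intensities 15.4%, 88.9% and 2.31%. The median ratio of measured genes was 0.02, -0.04 and 0.06 after quantile normalization. It was -0.08, -0.22 and 0.13 after median scaling, -0.13, 0.06 and -0.19 after housekeeping scaling, and -0.42, 0.42 and -0.85 on unscaled intensities. The 4 chemokines lower with IL-6/TGFβ than with TGFβ were lower by at least 2-fold under all these scalings, as were the 3 lower and the 1 higher against IL-23 and the 3 lower with IL-23 than with TGFβ. The 2 higher with IL-23 than with TGFβ were not both kept: housekeeping scaling left Ccl22 alone, with Ccl4 at 0.86, and unscaled intensities left none. After median scaling Ccl3 joined them at 1.01.

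**Figure D3:**
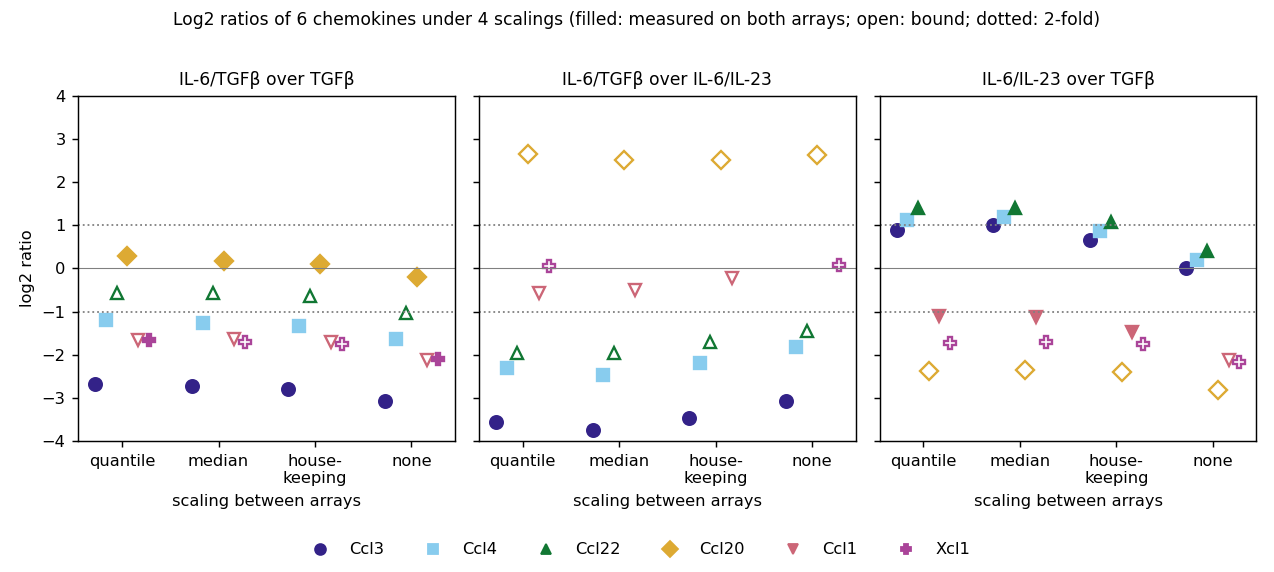
Log2 ratios of the same 6 chemokines after quantile normalization, median scaling, housekeeping scaling and without scaling, in 3 comparisons; filled symbols were measured on both arrays and open symbols are bounds. In the right panel Ccl3, Ccl4 and Ccl22 move from 0.88, 1.11 and 1.39 after quantile normalization to 0.00083, 0.19 and 0.40 without scaling, and in the left panel Ccl20 moves from 0.28 to -0.19. The ratios drawn are not set against the median gene, which moves with the scaling too. In the middle panel Xcl1 has no ratio after median or housekeeping scaling and Ccl1 has none without scaling, since both arrays were then at the floor.

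Receptors for these ligands were set beside them. Of 7 receptors analysed, 4 were above the floor on at least 1 array. Ccr6, the receptor for CCL20, read 548, 125 and 387, low on the same array as Ccl20, with a ratio of 1.63 for IL-6/TGFβ over IL-23 and -2.14 for IL-23 over TGFβ. Ccr8, the receptor for CCL1, read 868 with TGFβ and 538 in the IL-6/TGFβ culture. It was under the floor with IL-23, where Ccl1 was above it, and high with IL-6/TGFβ, where Ccl1 was under it. Its level with IL-6/TGFβ exceeded that with IL-23 by at least 8.15-fold, and it was at least 13.1-fold lower with IL-23 than with TGFβ. Ccr4, for CCL17 and CCL22, read 163, 83.0 and 138 and was not counted in any comparison; it was lowest on the array where Ccl22 was highest. Cxcr3, for CXCL10, read 107, 561 and 136 and was 5.24-fold higher with IL-23 than with TGFβ and 4.13-fold lower with IL-6/TGFβ than with IL-23. Xcr1 read 12.7, 9.04 and 14.5, under the floor.

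**Figure D4:**
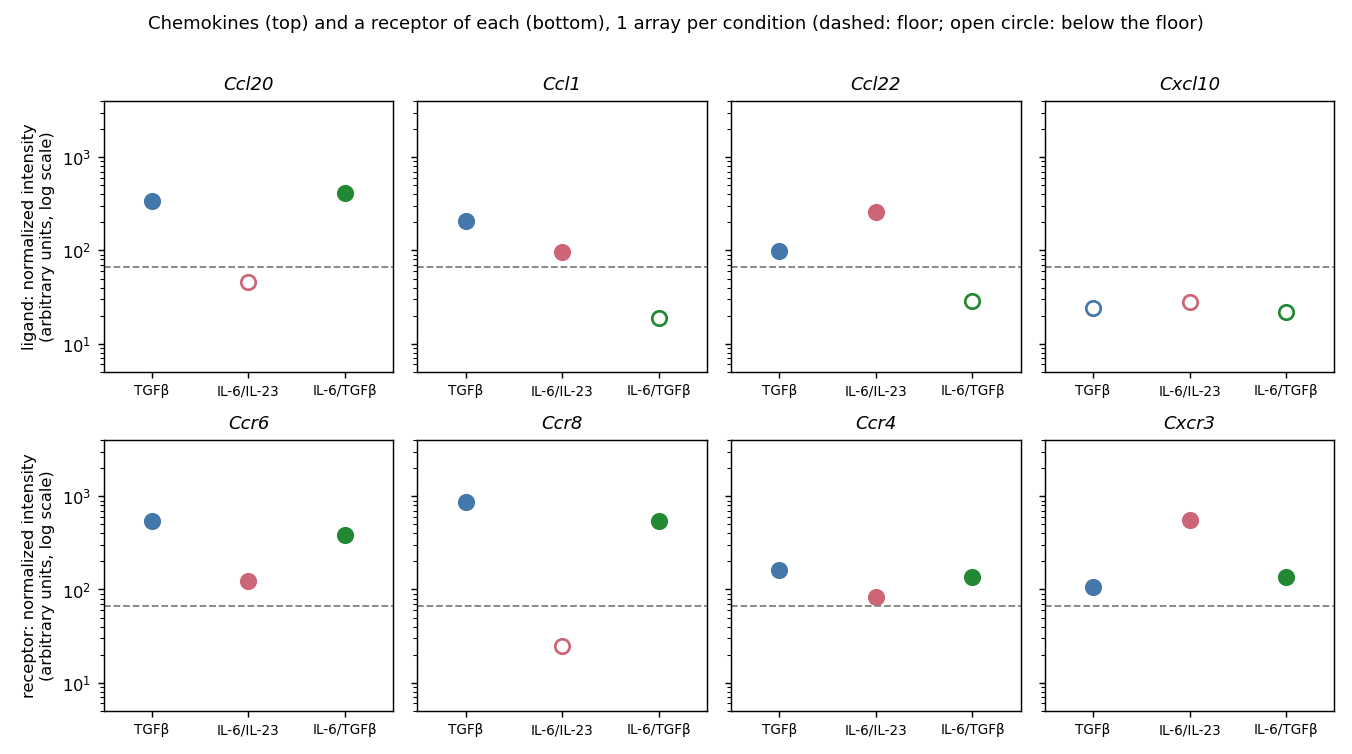
Normalized intensity (arbitrary units, log axis) of 4 chemokines in the upper row and a receptor of each in the lower row, 1 point per array, with the floor of 66.0 dashed and levels under it open. Ccl20 and Ccr6 are both lowest with IL-23, Ccl1 and Ccr8 differ in the array on which each is under the floor, and Cxcr3 is highest with IL-23 while Cxcl10 is under the floor throughout; a level of 1 gene cannot be read against that of another.

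Most other chemokines were not detectable. Of 25 further chemokine genes analysed, 24 were under the floor on all 3 arrays, among them Ccl2, Cxcl2 and Cxcl16. The exception was Cxcl1, a neutrophil attractant, which read 80.3, 105 and 66.9, close to the floor, and was not counted in any comparison. These are readings of the brightest of its 3 probe sets, and no further one could be read. Among 11 further chemokine receptors, 2 exceeded both remaining arrays by 2-fold or more in the IL-6/TGFβ culture, and 0 were lower. These were Cxcr4 (8.33-fold over TGFβ, at least 11.8-fold over IL-23) and Cxcr5, the receptor of B cell follicles (at least 4.04-fold over both).

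Other gene groups of activated T cells were read beside the chemokines. Over all genes above the floor on the brighter array, the shares lower were 2.04% for IL-6/TGFβ over TGFβ, 3.29% for IL-6/TGFβ over IL-23 and 3.26% for IL-23 over TGFβ. The shares higher were 2.72%, 3.78% and 3.47%. Of 11 activation-induced cytokine genes, 7 could be read for IL-6/TGFβ over TGFβ, where 1 was lower (Tnfsf11, the gene of RANKL) and 0 were higher. All 11 could be read in the other comparisons. For IL-6/TGFβ over IL-23, 6 were lower and 1 higher (Lta), and for IL-23 over TGFβ, 5 were higher and 2 lower. Il3 was above the floor with IL-23 only, where it read 1012 (at least 15.3-fold higher than on either other array). Il2, the T cell growth factor, read 726, 10464 and 1208. Lta, the gene of lymphotoxin, read 7534, 1487 and 5684, low with IL-23 as Ccl20 was. Of 14 genes that respond to T cell receptor signals, 0 were higher and 3 lower (Egr3, Nr4a1 and Nr4a3) for IL-6/TGFβ over TGFβ. With IL-6/TGFβ over IL-23, 0 were higher and 4 lower (Egr1, Nr4a1, Nr4a2 and Rel), and for IL-23 over TGFβ Nr4a2 was higher and Nr4a3 lower. The NF-κB subunit gene Rel read 246, 489 and 128, with ratios of -0.95 and -1.94 for IL-6/TGFβ over TGFβ and over IL-23. Its order was that of Ccl3, Ccl4 and Ccl22. Of 9 cytotoxic genes, 1 was higher (Runx3) and 2 lower (Gzmb and Nkg7) for IL-6/TGFβ over TGFβ. The Runx3 call rests on the brightest of its 2 probe sets, since the other could not be read in that comparison. Ctsw was higher and Gzmb lower for IL-6/TGFβ over IL-23, and Gzmb was higher and Nkg7 and Ctsw lower for IL-23 over TGFβ. Gzmb, the gene of granzyme B, read 221, 2392 and 87.2, again highest with IL-23 and lowest with IL-6/TGFβ. Of 5 Th17 genes analysed (Il17f, Il22 and Il23r were not analysed here), 4 (Il17a, Il21, Batf and Rora) were higher for IL-6/TGFβ over TGFβ, and 2 (Ccr6 and Rora) for IL-6/TGFβ over IL-23, with 0 lower in each. For IL-23 over TGFβ, 3 (Il17a, Il21 and Batf) were higher and 1 (Ccr6) was lower.

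The genes whose pattern over the 3 arrays lay nearest to a chemokine were sought among 8052 others above the floor on all arrays, by Euclidean distance between centred log2 levels. Only Ccl3 and Ccl4 could be used. Nearest to Ccl4 were Zfp862-ps (distance 0.14), Plk2 (0.19) and Mapre2 (0.23). Nearest to Ccl3 were Ifitm2 (0.79), Cd274, the gene of PD-L1 (0.83), and Gpr174 (0.94), so no other gene came as close to Ccl3 as to Ccl4. With 3 arrays such nearness describes these arrays only.

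Markers of other cells were read on the same arrays. All 5 B cell markers analysed, and all 6 dendritic cell markers, Itgax, Flt3, Zbtb46, Cd209a, Siglech and Xcr1, were under the floor on every array. The 7 macrophage and monocyte markers had 1, 0 and 1 above the floor on the arrays with TGFβ, IL-23 and IL-6/TGFβ. Mpeg1 was the first of these, at 153 with TGFβ, and Csf1r the other, at 79.4 with IL-6/TGFβ. With values under the floor raised to it, their summed levels were 549, 462 and 476. The array with the highest sum was thus the one on which Ccl1 and Xcl1 were highest, and the part of these cells in that result was not tested. The part of these cells in the levels of Ccl3, Ccl4 and Ccl22 was not tested either. Of 5 CD8 T cell and NK cell markers, 2, 2 and 3 were above the floor, with summed levels of 483, 492 and 383. Cd8a read 145, 120 and 80.2, and Cd8b1 read 140, 174 and 104, both lowest on the array where Ccl3 and Ccl4 were lowest. For IL-6/TGFβ over TGFβ the brightest Cd8a probe set gave a log2 ratio of -0.85, but the further one that could be read gave -0.09. Klrk1 went the other way: it was above the floor only with IL-6/TGFβ, barely, at 66.4. Ncr1 was under the floor throughout. The part of CD8 T cells in the Ccl3 and Ccl4 levels was not tested. Of 11 T cell markers, 11, 11 and 10 were above the floor, and Trat1 was the marker lost with IL-6/TGFβ. Cd28, the gene of the costimulatory receptor engaged in all cultures, read 1770, 5316 and 2840 and was counted as higher with IL-23 than with TGFβ (log2 ratio 1.59), and it was highest on the array where Ccl3, Ccl4 and Ccl22 were highest. Cd4 read 1333, 904 and 716, 1.86-fold lower in the IL-6/TGFβ culture than with TGFβ alone, and was not counted. The part of these differences in the chemokine levels was not tested. The probe sets of the deleted genes read 191 to 259 for Stat6 and 118 to 205 for Tbx21, above the floor throughout. Which exons the knockouts lack is not in the labels, and a probe set outside them checks nothing.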

How the data were processed

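RNA of 3 cultures, 1 per condition, was measured on Affymetrix mouse arrays from biotin-labelled cRNA. The authors deposited 1 linear intensity for each of 45101 probe sets. Software, background correction and scaling were not given in the sources used here. After 64 control probe sets were left out, log2 intensities were quantile normalized (limma 3.58.1, R 4.3.3), because array medians differed by more than 10%. Any real difference in total mRNA is thereby removed. Gene names come from GEO's platform annotation: 34945 probe sets had 1 symbol, 932 had several and were left out, and 9160 were unnamed here. Entrez identifiers of 34741 matched RefSeq (GRCm38.p6), and 0 symbols changed. A gene was read from its brightest probe set. The probe-set spread was taken from the median absolute deviation over at least 3501 genes per comparison. With 1 array per condition, size rules replace tests. The number of arrays limits the precision.

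The 9 chemokines and the gene lists were chosen with earlier results of these data known. Named were all 9, up to 4 genes per list with the largest ratios, receptors of the chemokines, and the 3 nearest patterns. Genes outside this rule (Nr4a1, Egr1, Rora, and examples of genes under the floor) were named after their values were seen. In all, 10 alternative settings were planned and 1 was added after seeing the data. Promoter stretches are the first 250 of 300 bases per gene in a RefSeq table (GRCm38.p6), which held 7 of the 9 genes, all but Ccl4 and Ccl5.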

Additional observations from a re-analysis of the deposited data

How the results depend on the processing

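Of 152 values of 18 chemokine ratios under alternative settings, 104 moved by less than the probe-set spread, 48 moved by more, and 0 counted ratios changed sign. Counts of chemokines moved by over 1.5 times as follows. For IL-23 (with IL-6) over TGFβ, the 2 higher became 0 without scaling, 1 with housekeeping scaling, 1 with a floor at the 99th percentile (250) and 0 with the 3-fold rule, and the 3 lower became 0 with that floor. For IL-6/TGFβ over IL-23, the 1 higher became 0 with that floor and 3 with 16 added and no floor (Ccl17, Ccl20 and Xcl1), and the 3 lower became 5 with 16 added (Ccl1 and Ccl5 joined). For IL-6/TGFβ over TGFβ, the 4 lower became 1 with that floor, Ccl3 alone. Without Mbp and Cela1, left out of the background list after seeing the data, the floor was 43.1; the lower counts became 5 for IL-6/TGFβ over TGFβ and 4 for IL-6/TGFβ over IL-23, and the other counts were as in the text. Calls over all genes moved by more than 1.5 times under 6 settings in at least 1 comparison. For IL-23 over TGFβ, the 310 higher and 291 lower became 74 and 3125 without scaling, 184 and 535 with housekeeping scaling, 889 and 786 with the 1.5-fold rule, 118 and 89 with the 3-fold rule, 150 and 135 with the floor of 250, and 652 and 545 with 16 added. For IL-6/TGFβ over IL-23, the 340 and 296 became 994 and 124, 423 and 205, 891 and 950, 115 and 104, 176 and 141, and 646 and 653 in the same order. In IL-6/TGFβ over TGFβ, the 241 and 181 became 119 and 655, 167 and 250, 681 and 581, 83 and 58, 116 and 75, and 453 and 365. The probe-set alternatives gave the chemokines the same values, since each has 1 probe set. No ratio was given where both arrays were at the floor. No paired analysis was possible because each condition has 1 array.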
